A study of Homo sapiens with 15 samples.

Results

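The comparison set 3 arrays of THP-1 cells exposed to infliximab for 6 h against 3 arrays of THP-1 cells exposed to CDP870 for 6 h, which are 6 of the 15 arrays of the series. All 54613 probe sets that are not controls were considered, and their expression was described across genes. THP-1 cells grow from a human monocytic leukaemia and serve as a model of monocytes. Infliximab is a whole chimeric IgG1 antibody against tumour necrosis factor (TNF), while CDP870, also named certolizumab pegol, is a Fab' fragment against TNF coupled to polyethylene glycol that lacks an Fc part. The other 9 arrays are untreated cells at 0 h and cells exposed to either agent for 24 h, 3 in each group. The design text describes the 3 of each group as biological replicates. Both 6 h groups spent the same time in culture, so time in culture, which is part of any comparison with 0 h, does not separate them. The agents differ in the Fc part, in the number of binding sites, in the polyethylene glycol and in their formulation, and these cannot be told apart here. The labels used here give no doses, and no other IgG or Fab' was among the groups.

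An antibody with an Fc part can bind Fc gamma receptors on monocytes as well as its antigen, and these receptors signal through Src family kinases and proteins with immunoreceptor tyrosine-based activation motifs. When cells lack an amino acid or meet other stresses, kinases phosphorylate the initiation factor eIF2, which slows translation as a whole but favours that of the transcription factor ATF4. ATF4 with its partners of the C/EBP family raises genes for amino acid synthesis, amino acid uptake and tRNA charging. The unfolded protein response of the endoplasmic reticulum (ER) shares this branch, but through ATF6 and XBP1 it also raises the chaperones of the ER.

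The values are log2 summaries of probe sets, whose zero is not known, so differences between groups can be read and single values carry no amount. The mean absolute difference between 2 arrays was 0.159 to 0.165 within the infliximab group and 0.148 to 0.164 within the CDP870 group, and 0.231 to 0.277 between arrays of the different agents. Both kinds of added control RNA were brighter in the infliximab group. The hybridisation controls had a mean of 8.02 ± 0.03 (SD, n = 3) with infliximab and 7.77 ± 0.12 (SD, n = 3) with CDP870, and the poly-A controls 6.53 ± 0.04 (SD, n = 3) and 6.15 ± 0.04 (SD, n = 3). In neither case did the 3 and 3 values overlap (exact permutation test, two-sided, p = 0.1, the smallest that 3 against 3 arrays can give). The differences between the 3' and 5' probe sets of GAPDH and ACTB, a sign of RNA quality, overlapped between the groups (exact permutation p = 0.5 for each).

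The agents differed at 6 h in 2622 of 28897 tested probe sets, or 9.07%, at an adjusted p under 0.05. The values were higher with infliximab in 1473 (5.1%) and lower in 1149 (3.98%). The higher probe sets reached larger differences. At least 2-fold differences were found in 192 higher probe sets of 132 genes and in 7 lower probe sets of 7 genes, and 13 higher but 0 lower probe sets reached 4-fold. The median log2 difference was 0.61 among the higher and -0.47 among the lower probe sets, against -0.03 over all tested probe sets. When each of the 13607 tested genes was represented by its brightest probe set, 755 genes (5.55%) were higher, 673 (4.95%) were lower, and the median over all genes was -0.05. These shares are the background for the counts of gene lists given below. All 3 infliximab values lay above all 3 CDP870 values in 5014 probe sets (17.4%), and below them in 5889 (20.4%), so that the lack of overlap by itself is common here. The number of calls fell whichever of the 6 arrays was left out. It was 1373, 1688 and 1181 without CDP870 replicate 14, 15 and 16, and 1564, 1301 and 1429 without infliximab replicate 8, 9 and 10. Each of these fits has fewer arrays in 1 group, so a call can be lost while the difference hardly changes. CTSG, for one, differed by -0.31, and by -0.34 to -0.29 in the 6 fits, none of which called it. With the level of the added RNA as a covariate 774 probe sets were called, 511 higher and 263 lower, of which 739 were also called without it. Of 150 called probe sets named by the rule for named genes, 109 were called in each of the 6 fits without 1 array, and 46 of the 49 with a difference of at least 2-fold were. With the covariate 53 of the 150 were not called. The level of the added RNA did not overlap between the agents, so the covariate and the agent cannot be fully separated. A lost call therefore need not mean a smaller difference. With the covariate FCGRT went from 0.34 to 0.35 and POLA1 from -0.59 to -0.61, whereas CALR went from -1.73 to -1.20 and CCL2 from 0.64 to 0.40. In the gene lists 194 genes were called, of which 116 were called in each of the 6 fits without 1 array, and 89 were not called with the covariate. The genes named below by a call that the covariate removed include ABCA1, ALDH18A1, APOE, BCAT1, CAD, CALR, CCL2, CCND1, CCNE1, CDC45, CDKN2D, CTPS1, CTSG, DNAJB11, EGR1, FARSB, FBL, FCGRT, FOS, GADD45B, GINS1, GINS2, IARS1, IFI6, LAT2, LYN, MCM3, MCM4, MTHFD1, PAX5, PFAS, POLA1, POLR1A, PPARG, PRPS1, PSME3, PTTG1, SLC2A4RG, SLC36A1, SQSTM1, STIP1, TGS1, TNFRSF10B, TP53INP1 and TYROBP. Some differences rest on values at the bottom of the scale. Of the 1473 higher probe sets 115 were below the array median on all 3 CDP870 arrays at 6 h, and 68 were above the median on infliximab arrays only, so that they passed the filter on low values through that agent alone. Among probe sets named below, those of CCL2, CTH (3.16), IFIT5, INHBE, RPS6KA2 (3.12) and STC2 (2.79) passed the filter in this way. Of the 1149 lower probe sets 39 were below the median on all 3 infliximab arrays at 6 h. In these the direction was read and the size is not well measured.

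**Figure D1:**
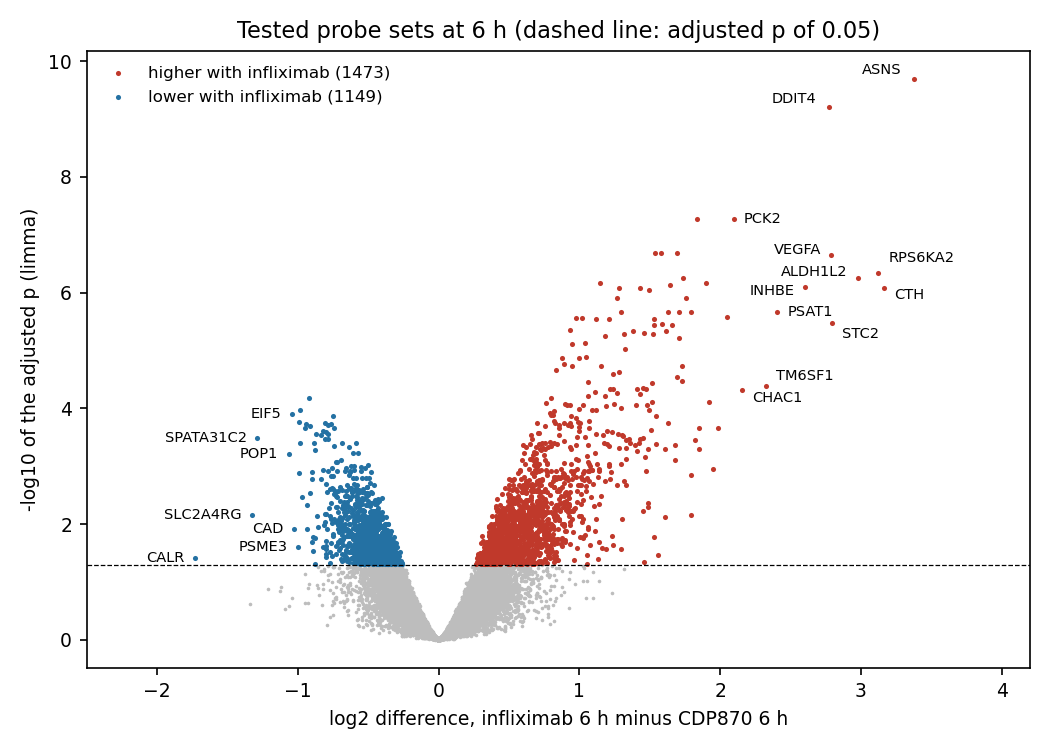
Log2 difference between infliximab and CDP870 at 6 h (horizontal axis) against -log10 of the limma adjusted p (vertical axis) for the 28897 tested probe sets. Red points are the 1473 probe sets called higher, blue points the 1149 called lower and grey points those below the dashed line at an adjusted p of 0.05; the named points are the largest differences, and the red points extend further from 0 than the blue.

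The untreated arrays show where each agent stood. At 6 h infliximab differed from 0 h in 2432 probe sets (8.42%), and CDP870 in 0 (0%) by the limma fit. The count for infliximab was 1156 without infliximab replicate 9, the lowest of 1156 to 2080 over the fits without 1 array, and 160 with the added RNA as a covariate. At an unadjusted p under 0.05 CDP870 differed from 0 h in 1352 probe sets, or 4.68% of those tested. No other tool was run, but with array weights in the same tool 11 probe sets were called for CDP870. These comparisons share the 3 untreated arrays, so only their own values are set side by side below. The arrays of CDP870 at 6 h differed from those at 0 h by a mean of 0.158 to 0.233, a range that ends at 0.185 without the untreated replicate 3, which stood apart from the other untreated arrays. The infliximab arrays differed from those at 0 h by 0.220 to 0.336.

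Several of the largest increases with infliximab were in enzymes that make amino acids, in mitochondrial enzymes and in DDIT4. ASNS, which encodes asparagine synthetase, had values of 8.85, 8.91 and 9.04 with infliximab and of 5.54, 5.50 and 5.63 with CDP870, and the untreated values were 5.87, 5.59 and 5.65. It was thus 10.4-fold higher with infliximab (log2 difference 3.38 ± 0.11 SE, n = 3 and 3, adjusted p = 2.01e-10), while all CDP870 arrays lay near or below the untreated ones. CTH, the cystathionine gamma-lyase that makes cysteine, had values of 4.81 to 5.07 against 1.08 to 2.15. Its difference of 3.16 sets infliximab against values below the array median on every CDP870 and untreated array, so its size is uncertain, and its second probe set differed by 1.52. DDIT4, an inhibitor of mTORC1 signalling, had values of 9.08, 8.87 and 9.11 with infliximab against 6.18, 6.30 and 6.26 with CDP870 and 6.26 to 6.46 untreated, a difference of 2.77 ± 0.10 (SE, adjusted p = 6.15e-10). PSAT1, the aminotransferase of serine synthesis, had values of 9.19 to 9.43 with infliximab against 6.81 to 7.05 with CDP870, and its other probe set differed by 1.84. ALDH1L2, a mitochondrial folate enzyme, differed by 2.98 ± 0.19 (SE), and PCK2, the mitochondrial phosphoenolpyruvate carboxykinase, by 2.10 ± 0.11 (SE).

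Secreted and signalling factors made up most of the other large increases. VEGFA, the vascular endothelial growth factor, had values of 7.55, 7.55 and 7.48 with infliximab against 5.04, 4.90 and 4.27 with CDP870, and all 4 of its probe sets were called higher, by 1.03 to 2.79. STC2, a secreted glycoprotein, INHBE, an inhibin beta subunit, and RPS6KA2, a ribosomal S6 kinase, were higher by 2.79, 2.60 and 3.12. In these 3 genes, as in CTH, every CDP870 and untreated value lay below the array median, so the sizes are uncertain. A second probe set of STC2 differed by 1.53, and of the other 2 tested for RPS6KA2 1 was called (0.86) and 1 was not (0.16). CHAC1, which degrades glutathione, differed by 2.15 ± 0.22 (SE), and the transmembrane gene TM6SF1 by 2.33 ± 0.24 (SE). A lack of overlap between the agents was part of how these 12 genes were chosen, and in each of them the infliximab values also lay above every untreated value. For CTH, STC2, INHBE and RPS6KA2 this follows largely from the filter, which they passed through infliximab arrays alone. In the others the choice by high infliximab values favours it.

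**Figure D2:**
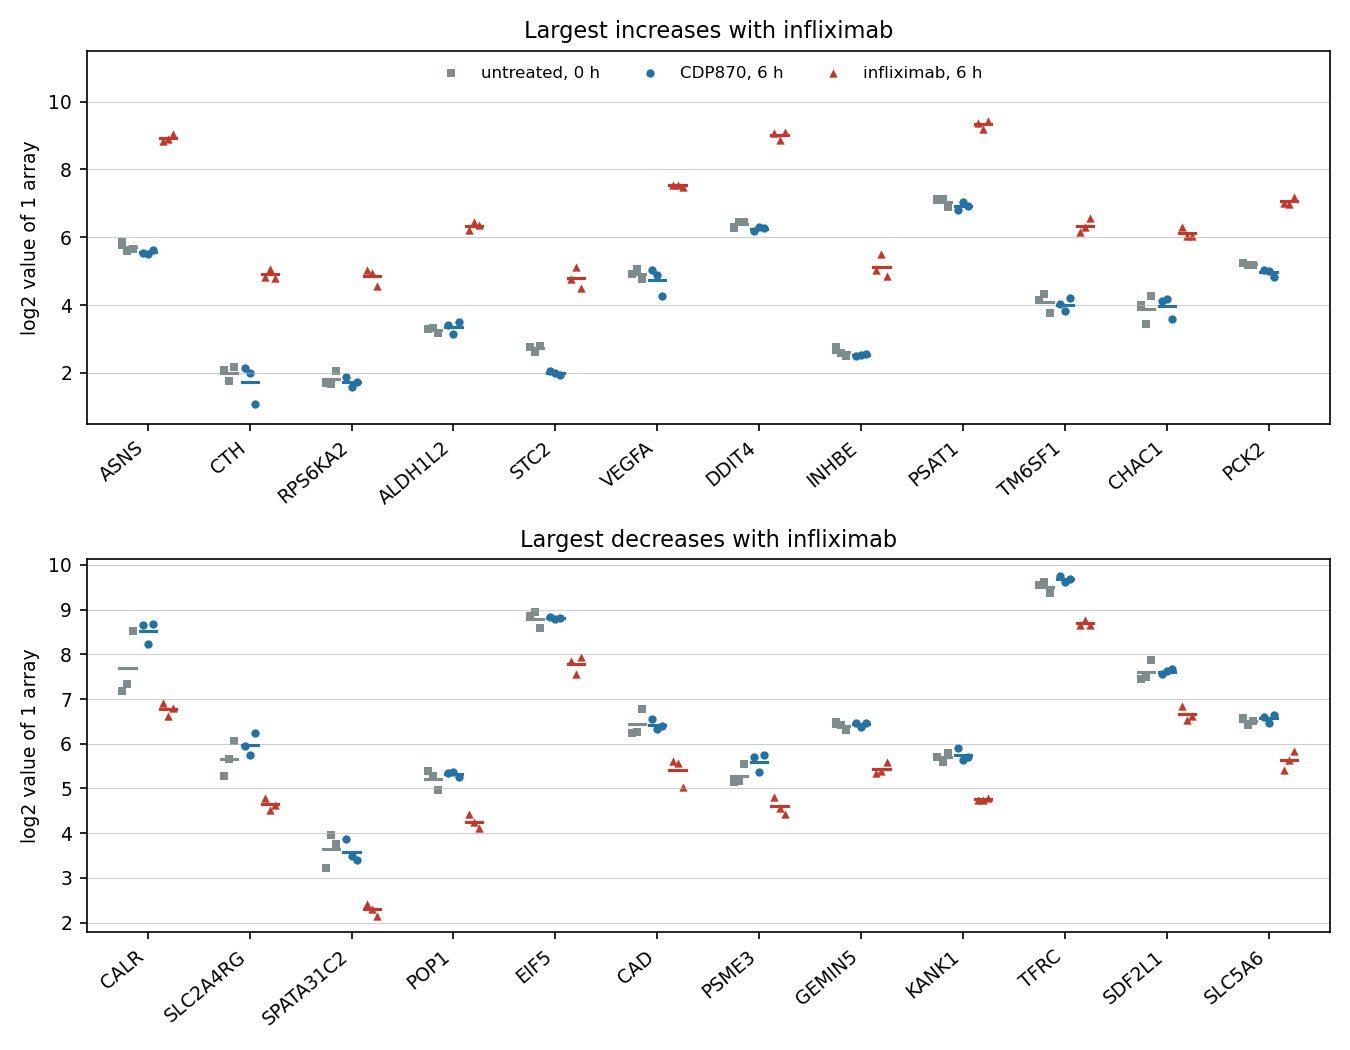
Log2 values of single arrays (points) and group means (lines) for the 12 largest increases (upper panel) and the 12 largest decreases (lower panel) with infliximab. Grey squares are untreated cells at 0 h, blue circles CDP870 at 6 h and red triangles infliximab at 6 h, 3 arrays each; in the upper panel the red triangles lie above the untreated values, with CTH, STC2, INHBE and RPS6KA2 below the array median in both other groups, and CALR in the lower panel has untreated values between 7.19 and 8.53.

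Decreases were smaller and lay in other functions. CALR, an ER calcium-binding chaperone, had the lowest difference, -1.73 ± 0.49 (SE, adjusted p = 0.0383), with values of 6.63 to 6.92 with infliximab and 8.24 to 8.67 with CDP870. Its untreated values were 7.19, 7.33 and 8.53, which overlap with the CDP870 range, and its difference ranged from -1.87 to -1.66 in the 6 fits without 1 array, in none of which it was called. The brightest of its 3 probe sets, all called lower, differed by -0.80 and was called in only 1 of the 6 fits. EIF5, which triggers GTP hydrolysis on initiating ribosomes, was lower by all 5 of its probe sets, with a largest difference of -1.04 ± 0.12 (SE), and values of 7.56 to 7.93 against 8.79 to 8.84. TFRC, the transferrin receptor, had values of 8.66 to 8.77 against 9.61 to 9.74, and 2 of its 4 probe sets were called. POP1, a subunit of RNase P and RNase MRP, differed by -1.06 ± 0.15 (SE) and GEMIN5, an RNA-binding protein of the SMN complex, by -0.99 ± 0.12 (SE). CAD, the enzyme that starts pyrimidine synthesis, differed by -1.03 ± 0.23 (SE), by -0.84 without infliximab replicate 9 and was not called without that array or without CDP870 replicate 14. PSME3, a proteasome activator, differed by -1.0 ± 0.26 (SE) and by -1.12 to -0.91 in the fits without 1 array, of which 4 did not call it, those without CDP870 replicate 14 or 16 or infliximab replicate 8 or 9. SLC2A4RG, a regulator of the glucose transporter gene SLC2A4, differed by -1.33, SPATA31C2, which was below the array median on all 3 infliximab arrays, by -1.29, KANK1 by -0.98, SDF2L1, a component of an ER chaperone complex, by -0.95 and the vitamin transporter gene SLC5A6 by -0.94.

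The promoters of these genes were searched for short motifs in the RefSeq windows of GRCh38.p14 that run from 250 bases before to 50 bases after each start. The motif CARE (TGATGNAA, both strands), which C/EBP and ATF proteins can bind together, was in 3.62% of 35116 windows. Of the 9 genes with the largest increases that have a window, 2 held it, ASNS and CHAC1. It was in 6 of 14 windows of aminoacyl-tRNA synthetase genes and in 5 of 15 of amino acid transporter genes. Amino acid synthesis genes held it in 3 of 8 windows and ATF4 pathway genes in 4 of 16. Serine and one-carbon enzyme genes held it in 0 of 8 windows, and transsulfuration and glutathione genes in 1 of 12. The 2 windows of the largest increases are shown with those of the synthetase genes GARS1 and AARS1. These synthetase genes were picked after their values were seen. The motif is forward in ASNS and reverse in CHAC1, GARS1 and AARS1. The windows lie at chr7:97872443-97872502 on the minus strand (ASNS), chr15:40953236-40953295 on the plus strand (CHAC1), chr7:30594819-30594878 on the plus strand (GARS1) and chr16:70289660-70289719 on the minus strand (AARS1). Each is written 5' to 3' along the gene, and capitals mark the match, which begins at position -68, -209, -33 and -187 counted from the start.
ASNS: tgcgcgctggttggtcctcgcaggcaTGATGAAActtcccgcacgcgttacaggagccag
CHAC1: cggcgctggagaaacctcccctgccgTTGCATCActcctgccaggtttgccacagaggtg
GARS1: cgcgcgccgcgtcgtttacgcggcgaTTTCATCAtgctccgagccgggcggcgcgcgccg
AARS1: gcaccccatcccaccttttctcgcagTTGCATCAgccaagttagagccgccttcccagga
The ER stress element ERSE (CCAAT and CCACG with 9 bases between them, both strands) was in 0.0769% of the windows and in 7 of 17 of ER chaperone genes. Of these 7 genes, CALR and CRELD2 were called lower with infliximab, and HSPA5, HSP90B1, PDIA6, CANX and ERO1B were not called by their brightest probe set. The windows of the called genes lie at chr19:12938359-12938428 on the plus strand (CALR) and chr22:49918528-49918598 on the plus strand (CRELD2), with the match at position -225 and -80.
CALR: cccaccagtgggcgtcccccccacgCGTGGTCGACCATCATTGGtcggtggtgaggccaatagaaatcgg
CRELD2: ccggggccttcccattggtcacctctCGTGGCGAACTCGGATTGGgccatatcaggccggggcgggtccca
A match is a description of the sequence and not a measured binding site. The window of PCK2, for one, held no CARE. Motifs of the hypoxia (HRE), interferon (ISRE) and heat shock (HSE) responses were searched too. HRE was in 3.24% of all windows, in 1 of 9 of the largest increases (DDIT4) and in 2 of 11 of the largest decreases (CAD and TFRC). ISRE and HSE were in 3.57% and 0.49% of all windows and in 0 of these 9 and 11. The window of WARS1 held an ISRE and no CARE.

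Genes of amino acid synthesis were counted in several lists, each gene by its brightest probe set, and the background stated above is 5.55% higher and 4.95% lower. Of 11 tested genes for serine and one-carbon enzymes 6 were higher and 1 was lower, with a median difference of 0.81. All 3 enzymes of serine synthesis were among them: PHGDH, which starts the pathway, had values of 9.24, 9.40 and 9.50 against 7.71, 7.68 and 7.67 (difference 1.69 ± 0.10 SE, adjusted p = 2.07e-07), PSAT1 differed by 1.84 and PSPH, the phosphatase at its end, by 0.81. The mitochondrial folate enzymes SHMT2, MTHFD2 and ALDH1L2 were higher by 0.95, 1.3 and 2.98. Of the cytosolic relatives MTHFD1 was lower by a difference of -0.36, a call lost in each of the 6 fits without 1 array, and SHMT1 (-0.43) and ALDH1L1 (-0.17) did not pass. In the amino acid synthesis list 3 of 12 genes were higher and 1 was lower, with a median of 0.07. Besides ASNS they were ASS1, the argininosuccinate synthase (1.06), and BCAT1, a branched-chain aminotransferase (1.01), while ALDH18A1, which starts proline synthesis, was lower (-0.51). Of 15 genes for transsulfuration and glutathione 4 were higher and 1, MSRB1, was lower, with a median of 0.03, and the lower call was lost in each of the 6 fits without 1 array. Both enzymes of transsulfuration, CBS (1.66) and CTH (3.16), were higher, as was SLC7A11, the cystine importer (1.69). The glutathione synthesis genes GCLC (0.07), GCLM (-0.16) and GSS (-0.03) did not pass.

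Amino acid transporters and aminoacyl-tRNA synthetases had more genes higher than lower. Of 16 tested transporter genes 7 were higher and 2 were lower, with a median of 0.35. SLC3A2, the heavy chain shared by several exchangers, had values of 8.01, 8.02 and 8.07 against 6.76, 6.78 and 6.72, a difference of 1.28 ± 0.09 (SE). Its light chains SLC7A5 (0.99) and SLC7A11 (1.69) were higher, whereas the light chain gene SLC7A6 was lower (-0.51). The neutral amino acid carriers SLC38A1 (1.28), SLC1A4 (0.92), SLC1A5 (0.83) and SLC38A2 (0.67) were also higher, and the lysosomal carrier gene SLC36A1 was lower (-0.41), a call lost in each of the 6 fits without 1 array. Among 17 genes for cytosolic aminoacyl-tRNA synthetases 9 were higher and 2 were lower, with a median of 0.44. WARS1, which charges tryptophan tRNA, had values of 9.21, 9.31 and 9.45 against 7.77, 7.77 and 7.82, a difference of 1.54 ± 0.09 (SE, adjusted p = 2.07e-07). CARS1 (1.27), GARS1 (1.15), EPRS1 (0.84), SARS1 (0.80), AARS1 (0.77), YARS1 (0.76), TARS1 (0.75) and IARS1 (0.44) were the others. Both chains of the phenylalanine enzyme were lower, FARSA by -0.66 and FARSB by -0.46, but FARSB was called only without CDP870 replicate 14 or infliximab replicate 9. VARS1 (-0.74), RARS1 (-0.33), HARS1 (-0.15) and KARS1 (-0.14) did not pass.

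**Figure D3:**
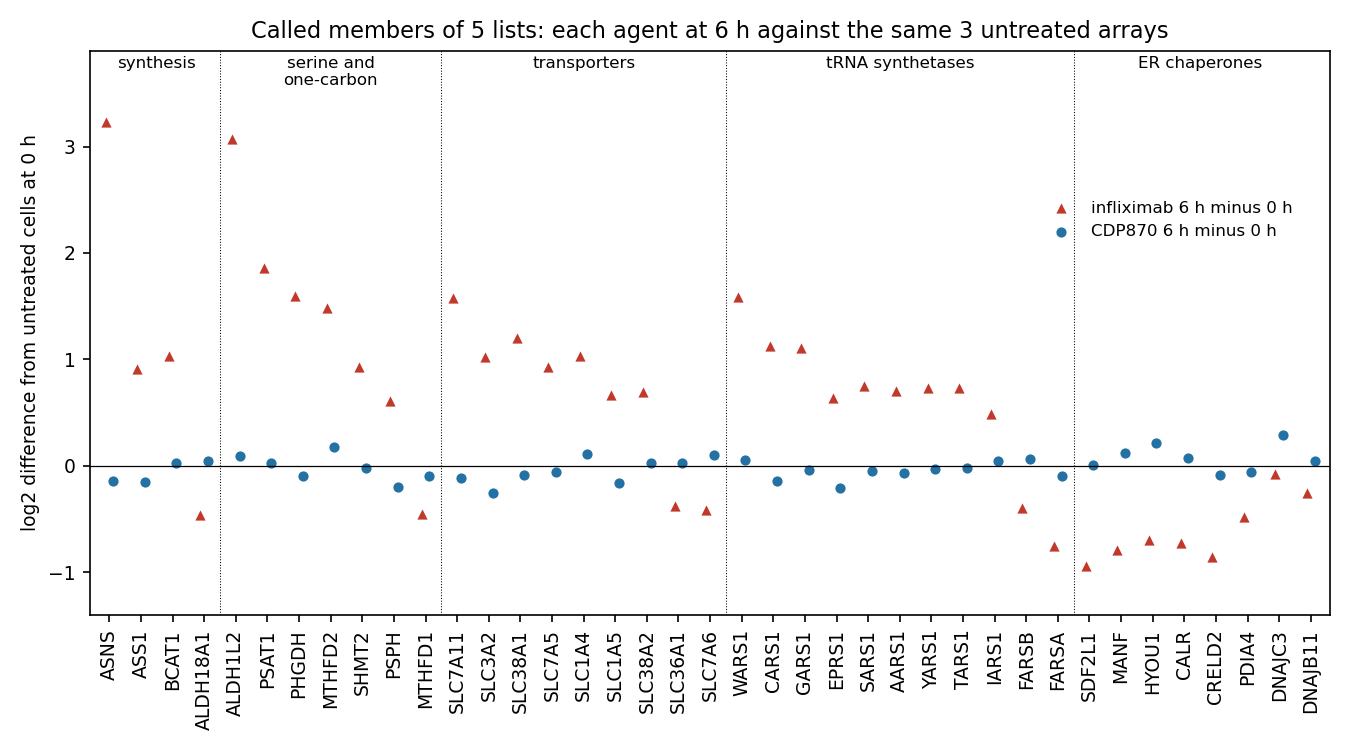
Log2 difference from the 3 untreated arrays for the called members of 5 gene lists, each gene by its brightest probe set. Red triangles are infliximab at 6 h and blue circles CDP870 at 6 h; in the 4 amino acid lists the infliximab points of genes called higher lie between 0.49 and 3.23 and of those called lower between -0.75 and -0.38, in the ER chaperones they lie between -0.94 and -0.08, and the CDP870 points lie between -0.26 and 0.29 throughout.

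Genes of the ATF4 pathway were in part higher. Amino acid levels, eIF2 phosphorylation and ATF4 protein are not part of these data. Of 19 ATF4 pathway genes 9 were higher and 0 were lower, with a median of 0.24. ATF4 itself differed by 0.84. ATF5, a related factor, had values of 8.14, 8.15 and 7.94 against 6.18, 5.80 and 6.10 (difference 2.05 ± 0.16 SE), although 2 of its 4 probe sets were not called. JDP2, a repressor of AP-1 sites (1.79), TRIB3, a pseudokinase that binds ATF4 (1.38), DDIT3, which encodes CHOP (1.18), and CEBPB (1.0) were higher. Of the kinases of eIF2 none passed by the brightest probe set: EIF2AK4 (GCN2) differed by -0.15, EIF2AK3 (PERK) by -0.33, EIF2AK2 (PKR) by 0.01 and EIF2AK1 (HRI) by -0.01. A second probe set of EIF2AK1 was called lower (-0.37). Among 20 genes upstream of mTORC1 3 were higher and 0 were lower, with a median of -0.04. They were DDIT4, SESN2, which binds leucine and restrains mTORC1 (1.61 ± 0.13 SE), and MLST8, a subunit of the mTOR complexes (1.11). EIF4EBP1, a repressor of cap-dependent translation, was also higher (1.06 ± 0.11 SE). Of 10 stress-induced secreted factors 3 were higher, VEGFA, INHBE and STC2, and 0 were lower. The probe sets of GDF15, a secreted stress cytokine, did not agree: the brighter did not pass (-0.03) and the other was called higher (1.61). FGF21 (-0.03) did not pass.

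Of 18 tested ER chaperone genes 0 were higher and 8 were lower, with a median of -0.30, and 5 to 7 were lower in the fits without 1 array. MANF, a secreted ER factor, had values of 7.85, 7.77 and 7.94 with infliximab against 8.74, 8.77 and 8.80 with CDP870 and 8.56 to 8.83 untreated, a difference of -0.92 ± 0.10 (SE, adjusted p = 6.75e-05). HYOU1, an HSP70-like chaperone, had values of 7.63, 7.64 and 7.64 against 8.57, 8.51 and 8.57 (-0.91 ± 0.16 SE), and CRELD2 differed by -0.77. SDF2L1 (-0.95), CALR (-0.80), PDIA4 (-0.42), DNAJC3 (-0.37) and DNAJB11 (-0.30) were the other members called lower. The call was lost in 4 of the 6 fits for DNAJC3 and in each of them for DNAJB11. HSPA5, which encodes the main ER chaperone BiP, differed by -0.29 by its brighter probe set, which did not pass, while its other probe set was called lower (-0.59). HSP90B1 (0.13), DNAJB9 (0.21), P4HB (-0.04) and PDIA6 (-0.03) did not pass. Of 18 genes of the IRE1, ATF6 and ER degradation list 4 were higher and 0 were lower, with a median of 0.09. XBP1, the transcription factor spliced by IRE1, differed by 0.55 ± 0.09 (SE), ERN1, which encodes IRE1, by 0.67 in 1 of its 3 probe sets and HERPUD1, a part of ER degradation, by 0.65. XBP1 and HERPUD1 each had a second probe set that differed by 0.04 and 0.05 and did not pass, and the other probe sets of ERN1 ranged down to -0.15 and were not called. Of 16 genes for cytosolic and mitochondrial heat shock chaperones 6 were lower and 0 were higher, with a median of -0.25. In the fits without 1 array 1 to 4 were lower. The 6 included STIP1 (-0.40) and HSPH1 (-0.57). Of these, HSPH1 was not called without CDP870 replicate 16 or infliximab replicate 9 or 10 (-0.62 to -0.53 over the 6 fits).

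**Figure D4:**
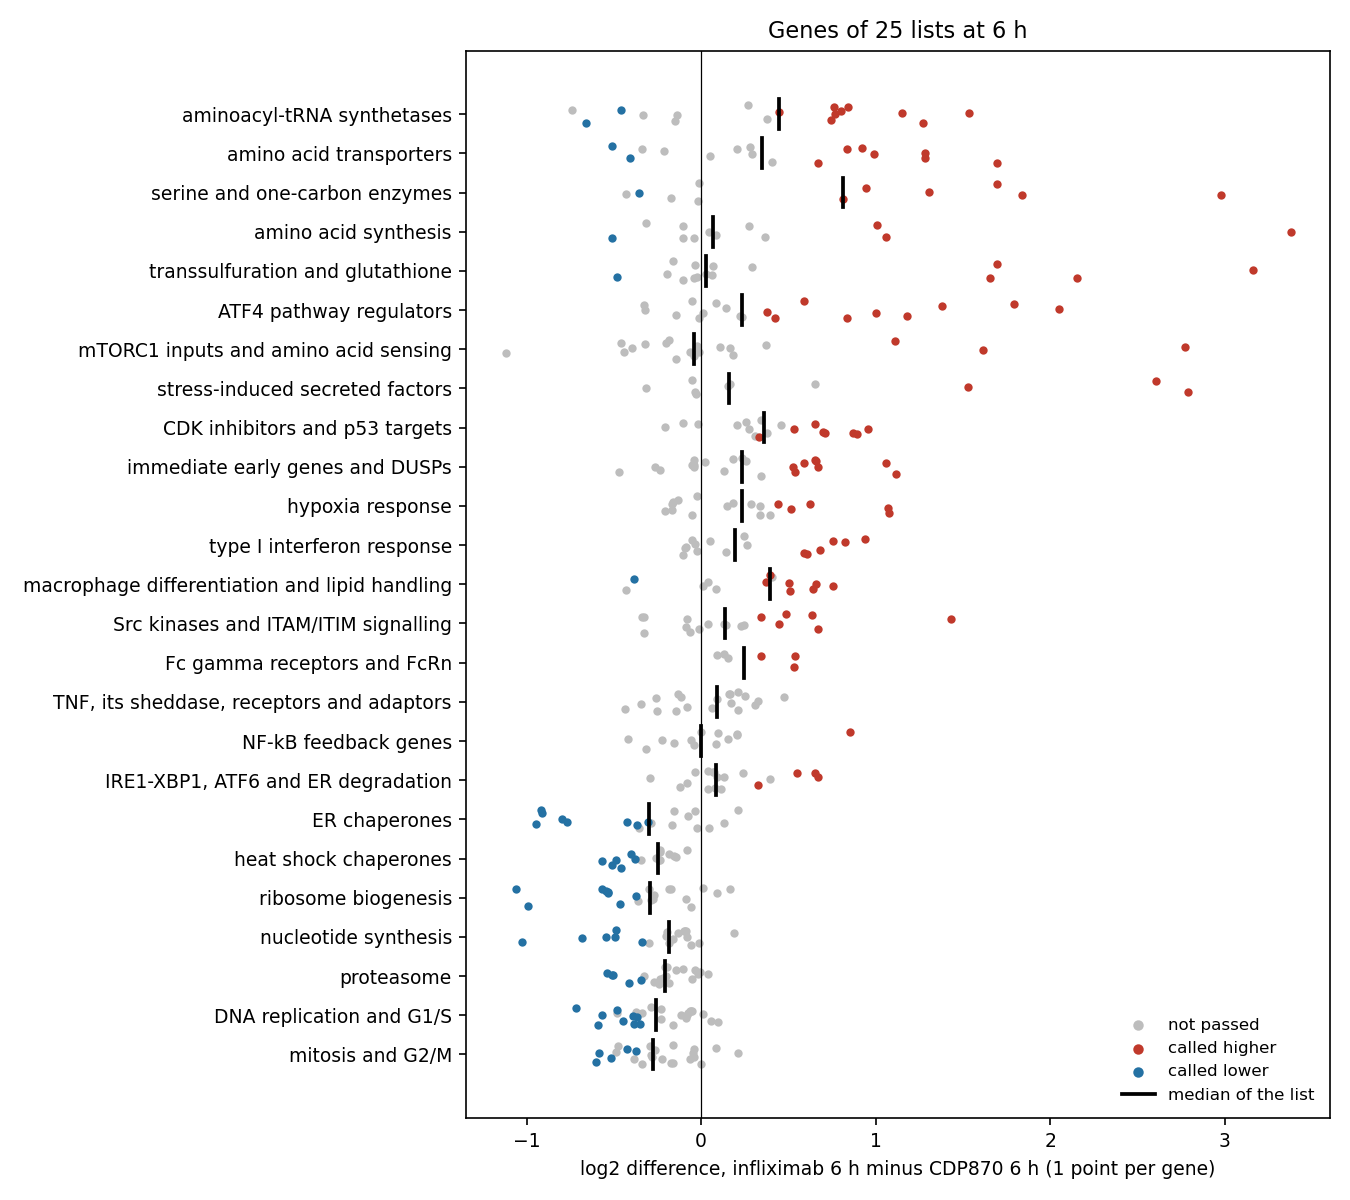
Log2 difference between infliximab and CDP870 at 6 h for the tested genes of 25 lists, 1 point per gene by its brightest probe set, with black bars at the medians. Red points are called higher, blue points called lower and grey points did not pass. Red points lead the amino acid, ATF4, CDK inhibitor and p53 target, and immediate early lists. Blue points lead the ER chaperone, ribosome, nucleotide, proteasome and replication lists.

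Genes for growth and division were lower in part. Of 20 ribosome biogenesis genes 8 were lower and 0 were higher, with a median of -0.29, and 4 to 6 were lower in the fits without 1 array and 3 with the covariate. POP1 and GEMIN5 led this list, and NOP2, an RNA methyltransferase of the nucleolus, had values of 6.24, 6.18 and 6.29 against 6.79, 6.60 and 6.95 (-0.54 ± 0.10 SE). POLR1A, the large subunit of RNA polymerase I, differed by -0.57 and FBL, the nucleolar methyltransferase fibrillarin, by -0.37. The call was lost in 3 of the 6 fits for POLR1A and in each of them for FBL. In nucleotide synthesis 6 of 19 genes were lower and 0 were higher, with a median of -0.19, against 4 to 5 lower in the fits without 1 array and 2 with the covariate. Besides CAD they were UMPS, which ends the same pathway (-0.55), CTPS1, which makes CTP (-0.49), PFAS (-0.68) and PRPS1 (-0.34) of purine synthesis, and NME1 (-0.49). PRPS1 was called in only the fit without infliximab replicate 9. Of 21 proteasome genes 5 were lower and 0 were higher, with a median of -0.21 and 2 to 3 lower without 1 array, among them PSMD1 (-0.51) and PSMD11 (-0.51). Among 22 initiation factor genes 2 were higher and 3 were lower, with a median of -0.11, and without 1 array 1 to 2 were higher and 1 was lower. In the list of mitochondrial ribosomal proteins 1 of 21 genes was lower, and in that of the respiratory chain 1 of 20 was, shares close to the background, and both calls were lost in each fit without 1 array.

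Of 26 genes of DNA replication 9 were lower and 0 were higher, with a median of -0.26. The 9 became 4 to 7 in the fits without 1 array and 2 with the covariate. CDC25A, the phosphatase that activates CDK2, had values of 6.64, 6.90 and 6.94 against 7.57, 7.50 and 7.57 (-0.72 ± 0.11 SE). MCM10 (-0.57), MCM4 (-0.48), GINS2 (-0.45), CCNE1 (-0.39), GINS1 (-0.38), MCM3 (-0.37) and CDC45 (-0.35) were lower, and so was the DNA polymerase gene POLA1 (-0.59), which was not called without CDP870 replicate 14 or infliximab replicate 9 (-0.69 to -0.53 over the 6 fits). The call was lost in 4 of the 6 fits for MCM4 and CDC45, in 5 for CCNE1 and GINS1 and in each of them for MCM3. PCNA (-0.07), MCM6 (-0.08) and RRM2 (-0.06) did not pass. In mitosis 5 of 24 genes were lower and 0 were higher, with a median of -0.27, and 2 to 3 were lower without 1 array. CDC20, an activator of the anaphase-promoting complex, had values of 9.30 to 9.56 against 9.97 to 10.03 (-0.59 ± 0.10 SE), and PTTG1, the securin gene, differed by -0.52. TOP2A (0.21) and CDK1 (0.08) did not pass. Of 18 tested genes in the list of CDK inhibitors and p53 targets 8 were higher and 0 were lower, with a median of 0.36. In each fit without 1 array 5 were higher, and with the covariate 3 were. BTG1, an antiproliferative factor, had values of 9.28, 9.04 and 9.17 against 8.26, 8.22 and 8.33 (0.89 ± 0.13 SE). TP53INP1 (0.96), PMAIP1 (0.87), the death receptor gene TNFRSF10B (0.71), CDKN2D (0.65), GADD45A (0.53) and GADD45B (0.33) were others. The 8 also count CCND1 (0.70), which encodes a cyclin and not an inhibitor of the cycle. The call was lost in 2 of the 6 fits for TP53INP1, in 5 for CDKN2D and GADD45B and in each of them for CCND1. CDKN1A, which encodes p21, differed by 0.21 and MDM2 by 0.38, and neither passed. No cell counts are part of these data, so fewer dividing cells and less RNA per cell cannot be told apart.

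The target of the agents and its receptors did not pass the test. TNF had values of 4.27, 4.49 and 4.08 with infliximab and 3.83, 3.50 and 4.08 with CDP870, which overlap, and the difference of 0.48 ± 0.19 (SE) did not pass (adjusted p = 0.127). Its receptors TNFRSF1A (-0.26 ± 0.16 SE, adjusted p = 0.348) and TNFRSF1B (-0.13 ± 0.12 SE, adjusted p = 0.536) and its sheddase gene ADAM17 (0.25 ± 0.12 SE, adjusted p = 0.226) did not pass. Of 19 tested genes of TNF signalling 0 were higher or lower by the limma fit, and by any probe set 1 was higher, CFLAR, an inhibitor of caspase-8, in 1 of its 11 probe sets (0.47). Of 13 NF-kB feedback genes 1 was higher, IER3 (0.85 ± 0.14 SE), and NFKBIA (0.21), TNFAIP3 (-0.23) and NFKB1 (-0.06) did not pass. Of 14 cytokine genes 2 were higher. IL18 had values of 3.74 to 4.04 against 2.67 to 3.11 (0.99 ± 0.17 SE), and CCL2 differed by 0.64, between 0.53 and 0.72 in the fits without 1 array, and was called in only that without infliximab replicate 10. Its CDP870 and untreated values all lay below the array median, so the size is uncertain. IL1B (-0.07) and CXCL8 (0.31) did not pass.

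Among Fc receptor genes 3 of 6 tested were higher and 0 were lower, with a median of 0.25. FCER1G, the gamma chain through which several Fc receptors signal, had values of 7.92, 7.93 and 7.98 against 7.32, 7.46 and 7.44 with CDP870 and 7.09 to 7.41 untreated, a difference of 0.54 ± 0.10 (SE, adjusted p = 0.00605). FCGR1BP had values of 9.05, 9.01 and 9.05 against 8.43 to 8.55 (0.53 ± 0.09 SE), but it is a near copy of FCGR1A and their probes cannot be assigned to 1 gene with certainty. The probe set of FCGR1A itself was below the filter, with values of 2.20 to 2.65 with infliximab and 2.13 to 2.53 with CDP870. FCGRT, the neonatal receptor that recycles IgG, differed by 0.34 ± 0.09 (SE, adjusted p = 0.0359), from 0.31 to 0.39 in the fits without 1 array, and was called in only that without infliximab replicate 8. FCGR2A differed by 0.15 ± 0.11 (SE) and FCGR2B by 0.09 ± 0.14 (SE), and neither passed. FCGR3A has no probe set under 1 symbol and was not analysed here. Downstream, 6 of 18 genes for Src kinases and ITAM signalling were higher and 0 were lower, with a median of 0.14. The Src kinase FYN had values of 7.66, 7.60 and 7.75 against 6.34, 6.21 and 6.17 with CDP870 and 6.25 to 6.30 untreated (1.43 ± 0.10 SE, adjusted p = 8.46e-07), and 3 of its 4 probe sets were called higher. FGR (0.67), GAB2 (0.63), LYN (0.49), LAT2 (0.45) and TYROBP, the adaptor DAP12 (0.34), were the others. The calls of LYN and TYROBP were lost in each of the 6 fits without 1 array, and 3 of the 6 genes were called with the covariate. SYK (-0.06), BTK (0.14) and PLCG2 (-0.09) did not pass.

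Several sets of myeloid and inflammatory genes had members that were higher. Of 16 tested interferon response genes 6 were higher and 0 were lower, with a median of 0.19. XAF1, a proapoptotic interferon-induced gene, had values of 6.22, 6.19 and 6.09 against 5.25 to 5.49 (0.83 ± 0.10 SE), IFIT5 differed by 0.94, IFI6 by 0.76 and IRF7, a regulator of interferon genes, by 0.59. The CDP870 and untreated values of IFIT5 all lay below the array median, so its size is uncertain, and the call was lost in 3 of the 6 fits without 1 array for IFI6 and in 5 for IRF7. MX1 (-0.11), ISG15 (0.05), IFIT3 (-0.04) and OAS1 (0.14) did not pass. Of 14 tested genes each for MHC class I and class II presentation 3 and 3 were higher and 0 were lower. In the fits without 1 array class I had 1 to 2 and class II 2 to 3, and with the covariate each had 1. HLA-E, a non-classical class I gene, differed by 0.66 with all 3 probe sets called, and HLA-DPA1, a class II chain, by 0.69. HLA genes are near copies of each other, and their probe sets can take up signal of relatives. Of 13 genes of macrophage differentiation and lipid handling 7 were higher and 1 was lower, with a median of 0.39. The 7 became 3 to 4 in the fits without 1 array and 2 with the covariate, and the lower call was lost without infliximab replicate 9. LGALS3, the galectin-3 gene, had values of 7.24, 7.07 and 7.21 against 6.45, 6.32 and 6.48 (0.76 ± 0.10 SE), and CD9, a tetraspanin (0.66), ABCA1, a cholesterol exporter (0.64), PPARG (0.51) and APOE (0.50) were higher. The call was lost in 2 of the 6 fits for ABCA1 and in each of them for APOE. Among 21 immediate early genes 8 were higher and 0 were lower, with a median of 0.24 and 4 higher with the covariate, including KLF2 (1.12), KLF10 (1.06), FOS (0.67), DUSP6, a phosphatase of ERK (0.66), and EGR1 (0.65), whose call was lost in 4 of the 6 fits without 1 array. Of 19 integrin and adhesion genes 2 were higher, 0 to 1 without 1 array, among them the chemokine receptor gene CCR1 (0.46), which was not called without infliximab replicate 9 (0.44 to 0.47 over the 6 fits).

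Metabolic lists were mixed. In the hypoxia list 5 of 18 genes were higher and 0 were lower, with a median of 0.24, and 3 to 6 were higher in the fits without 1 array. They included BNIP3L, a mitophagy receptor, with values of 6.62 to 6.85 against 5.58 to 5.82 (1.07 ± 0.13 SE), ANKRD37 (1.08) and MXI1 (0.52), whereas HIF1A (-0.05), EGLN3 (-0.16) and P4HA1 (0.29) did not pass. Of 22 glycolysis genes 3 were higher and 1 was lower, with a median of -0.09. With the covariate 1 was higher, and the lower call was lost in each fit without 1 array. SLC2A3, the glucose transporter GLUT3, had values of 6.09, 5.96 and 6.65 against 4.36, 4.43 and 4.72 (1.73 ± 0.16 SE), and all 3 of its probe sets were called. The core enzymes LDHA (-0.23), PGK1 (-0.19) and ALDOA (-0.09) did not pass. Of 21 genes of autophagy and lysosomes 4 were higher, among them SQSTM1, the autophagy receptor p62 (0.44). The 4 became 1 to 3 in the fits without 1 array and 0 with the covariate. In iron handling 2 of 11 genes were lower, TFRC and STEAP3, a ferrireductase (-0.88 ± 0.12 SE). Of 17 NRF2 targets 3 were higher, 1 to 3 without 1 array, and 1 was lower, and NQO1 (-0.22) and TXNRD1 (-0.28) did not pass. In the cholesterol and fatty acid list 1 of 17 genes was higher and 1 lower, and both calls were lost in some or all of the fits without 1 array. In that of apoptosis regulators 2 of 14 were higher, against 0 to 1 without 1 array and 0 with gene means. None of 8 metallothionein genes passed by the brightest probe set.

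MALAT1, a long nuclear RNA, had values of 5.82, 6.26 and 5.67 with infliximab, 4.24, 4.14 and 4.0 with CDP870 and 5.67, 5.30 and 6.60 untreated. The CDP870 values lay below all others, and the difference between the agents was 1.79 ± 0.28 (SE, adjusted p = 0.00141), but 6 of its 8 probe sets were not called and they ranged down to -0.19. Of 15 genes of that list 3 were higher and 0 were lower, with a median of 0.02. UBN1 had 1 probe set higher (0.56) and 1 lower (-0.67), and 6 genes in all had calls in both directions (CCDC149, HIVEP3, MYO6, NUDT13, OSBPL1A and UBN1). Of 6 tested histone genes 4 were higher, among them H2AC6 (1.01) and H2BC5 (0.69).

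Markers of the labelled cell type and of others were read on the same arrays. The mean over 10 monocytic markers was 6.80 to 6.99 with infliximab and 6.77 to 6.90 with CDP870, and 1 of its 8 tested members differed, CTSG (-0.31), whose call was lost in each of the 6 fits without 1 array (-0.34 to -0.29). CD14 and CD36, which define mature monocytes, were below the filter. Epithelial markers differed. Their mean over 7 genes was 6.04 to 6.17 with infliximab, 5.28 to 5.51 with CDP870 and 5.64 to 5.85 in untreated cells, and 5 of 6 tested members were higher with infliximab. EPCAM had values of 6.70, 6.91 and 6.99 against 5.67, 5.61 and 5.68 with CDP870 and 5.99 to 6.06 untreated (1.21 ± 0.10 SE), so the CDP870 arrays lay below and the infliximab arrays above the untreated ones. KRT19 (1.19), KRT18 (1.0) and KRT5 (0.94) lay in the same order on every array, KRT8 was also higher (0.87), KRT7 differed by -0.01 and CDH1 was below the filter. The part of these markers in the other differences was not tested. Of the T cell, B cell, erythroid, fibroblast and endothelial markers 1 differed, the B cell gene PAX5 (-0.53), which was not called without CDP870 replicate 14 or 16 or infliximab replicate 10 (-0.63 to -0.43 over the 6 fits), and their mean levels lay between 3.03 and 3.98 on the 6 arrays, against array medians of 2.97 to 3.05.

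The difference between the agents at 24 h was measured on other arrays and can be set beside that at 6 h. Both tests used the same residual variance per probe set, estimated from all arrays of the series. A probe set with a low variance is thus favoured for a call at both times. The shared calls below are therefore not agreement between independent tests. At 24 h 1366 probe sets were higher with infliximab (4.73%) and 516 were lower (1.79%). Of the 1473 higher at 6 h, 790 were also called higher at 24 h, which is 53.6% of the 6 h list and 57.8% of the 24 h list. Of the 1149 lower at 6 h, 246 were also called lower at 24 h, or 21.4% of the 6 h list and 47.7% of the 24 h list. The sign was the same at 24 h for 94.8% of the higher and for 86.2% of the lower calls, and the median 24 h difference was 0.46 and -0.21. The share of equal signs over all tested probe sets was not counted. Since the calls were chosen by their 6 h values, that choice by itself favours smaller differences at 24 h. Of the 192 probe sets at least 2-fold higher, 154 were called higher at 24 h, with a median of 1.13. Across all tested probe sets Pearson's r between the differences was 0.528, a description over probe sets that are not independent and share their arrays within each time. ASNS differed by 3.39 at 24 h, DDIT4 by 2.88 and FYN by 1.48. Among the decreases EIF5 (-1.18), SDF2L1 (-0.91) and MANF (-0.87) were also called lower at 24 h, while CAD (-0.07) and CALR (-0.31) did not pass. CAD had infliximab values of 6.60, 5.68 and 6.57 at 24 h in replicates 6, 7 and 5. CALR had 6.74, 6.71 and 8.87 in the same order. Replicates 5 and 6 of that group stood apart, while replicate 7 differed from the 6 h infliximab arrays by a mean of 0.140 to 0.158. In replicate 6 the GAPDH and ACTB differences, read above as a sign of RNA quality, were 0.24 and 0.27, the highest of all arrays. Its poly-A controls had a mean of 5.70, the lowest of all arrays. A fit without replicates 5 and 6 left only replicate 7 in the infliximab group at 24 h. It therefore cannot show the part of single arrays in the 24 h differences, and no fit left out a single 24 h array. The interaction of agent and time, which tests the change itself, called 0 probe sets (0%) by limma, with a smallest adjusted p of 0.365. At an unadjusted p under 0.05 it found 2642 (9.14%).

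**Figure D5:**
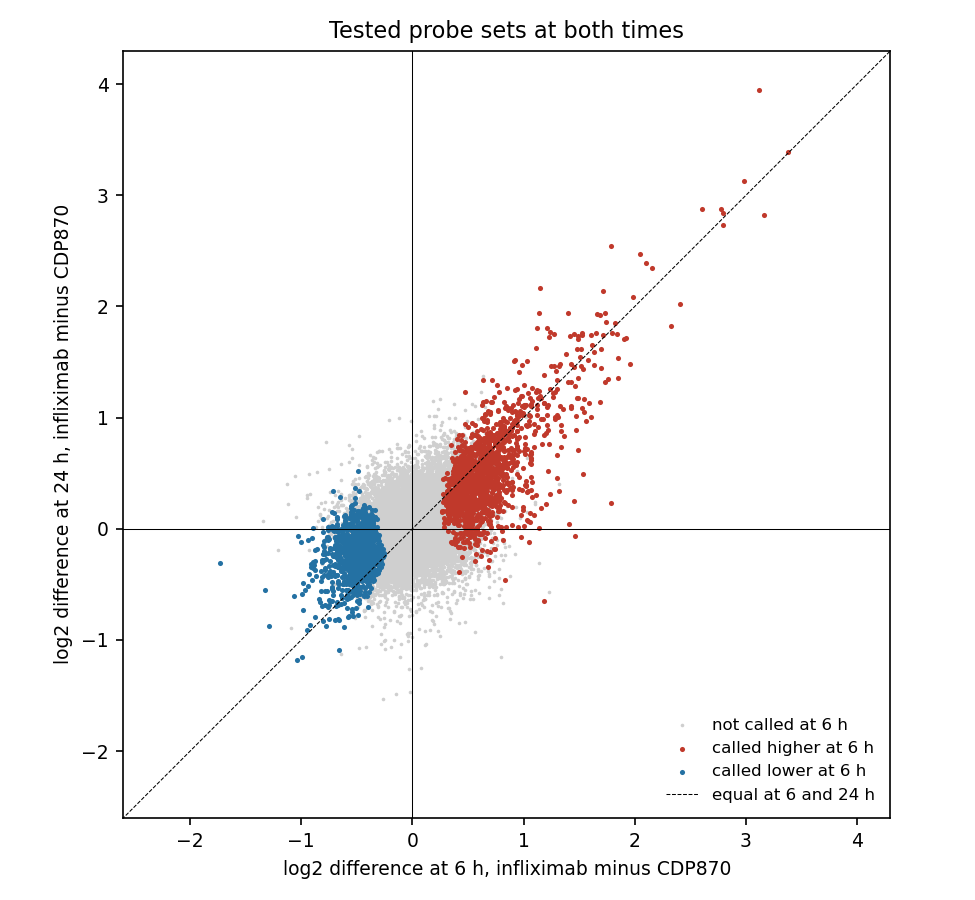
Log2 difference between infliximab and CDP870 at 6 h (horizontal axis) and at 24 h (vertical axis) for the tested probe sets. Red points were called higher, blue points lower and grey points not called at 6 h, and the dashed line marks equal differences. The largest red points lie near the line, and many blue points lie nearer to 0 at 24 h than at 6 h. The coloured points were chosen by their 6 h values, which by itself favours smaller differences at 24 h.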

How the data were processed

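RNA of 15 THP-1 samples was read on Affymetrix arrays with 54675 probe sets, and groups came from the sample labels. The deposited values are log2 summaries; GCRMA and GCOS 1.3.0 appear in the submitters' processing notes, and the normalization between arrays is not stated there. The values ran from 0.17 to 11.94. Of 54613 probe sets that are no controls, 41091 had 1 gene symbol in the platform annotation, 1801 several and 11721 none, and 41037 of the first matched RefSeq.

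A probe set was tested if it lay above its own array's median (the 50th percentile) on at least 3 of 15 arrays. The fit gave every group its own mean on all 15 arrays and used limma (version 3.58.1, under R 4.3.3) with its functions lmFit, contrasts.fit and eBayes. Tests were two-sided, with Benjamini-Hochberg adjustment over all 28897 probe sets of a comparison, and an adjusted p under 0.05 was a call. Errors are model standard errors unless marked SD. The 3 arrays of a group limit the precision. The fit was tested on simulated data. The members and the 48 gene lists were chosen with earlier results of these data known. The rule named the 12 largest increases and decreases, taken from called probe sets of 1 symbol whose 3 and 3 values do not overlap, up to 4 called members of a list by p, the 5 smallest interaction p and TNF, its receptors, ADAM17 and Fc receptor genes; other list members named in the text were chosen after their values were seen. A gene stands in a list by its brightest tested probe set. Alternatives were the arrays in the fit, the filter, centring, quantile normalization, array weights, a variance trend, the level of the hybridisation controls as a covariate, gene means and leaving out each of the 6 arrays. Figures were drawn with matplotlib 3.10.9.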

Additional observations from a re-analysis of the deposited data

Results flagged for a closer look

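In 1 probe set each of 3 genes the difference between infliximab and CDP870 lay one way on all arrays of 6 h and the other way on all arrays of 24 h. The share of such probe sets among all tested was not counted. A lack of overlap at 6 h alone was common, with infliximab above in 17.4% and below in 20.4% of tested probe sets. The difference at 24 h minus that at 6 h was -0.8567 for UBN1 (0.56 at 6 h and -0.29 at 24 h), -0.7067 for TGS1 (0.45 and -0.26) and -0.6667 for TIMM17A (0.26 and -0.40). They are among the 5 probe sets with the smallest p of the interaction of agent and time, none of which passed after adjustment by limma (smallest adjusted p = 0.365). UBN1 had another probe set called lower at 6 h, and with gene means its 6 h difference was -0.0517. The difference of TIMM17A at 6 h did not pass (adjusted p = 0.0576), another of its 3 probe sets was called lower at 6 h (-0.41), and with gene means its 6 h difference was -0.1411. The difference of TGS1 at 24 h did not pass (adjusted p = 0.124), its other probe sets ranged down to -0.11 at 6 h, and its 6 h call was lost with the covariate and with gene means.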

How the results depend on the processing

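No paired analysis was possible because the replicate numbers of the labels run on from group to group and the 6 h groups share none. The 2622 calls between the agents, 1473 higher and 1149 lower, became 5117 (2590 and 2527) when only the 6 arrays were fitted, 6326 (2998 and 3328) with array weights, 774 (511 and 263) with the hybridisation controls as a covariate and 1640 (886 and 754) with gene means, a test of fewer units. They became 5625 (2686 and 2939) without the untreated replicate 3 and the infliximab 24 h replicates 5 and 6, an alternative chosen after seeing the data. Leaving out 1 of the 6 arrays gave 1181 to 1688 calls, 819 to 1002 higher and 362 to 757 lower. The 192 calls at least 2-fold higher became 84 with gene means. The 7 at least 2-fold lower became 14 with only the 6 arrays, 15 with array weights, 4 with the covariate, 4 with gene means, 14 without the 3 outlying arrays and 4 to 13 without 1 array. For infliximab against 0 h the 2432 calls became 4588 with array weights, 160 with the covariate, 1614 with gene means and 1156 to 2080 without 1 array, and for CDP870 against 0 h array weights gave 11 in place of 0. UBN1, with probe sets of opposite direction, changed from 0.56 to -0.0517 with gene means, which average them, and TIMM17A, not called at 6 h, from 0.26 to -0.1411. Apart from the gene means and the smaller fits, the cause of these changes was not tested. The unknown between-array normalization, the lack of a control antibody and the 3 arrays per group limit what can be read from the comparison, and low values near the bottom of the scale have the least certain folds.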
